A study of Triticum aestivum with 18 samples.

Results

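In the wheat-rye addition line 3R, 146 of the 45220 probe rows of the array lay at the floor of the measurement, while the same rows gave clear signal in the addition line 6R and in the wheat cultivar Chinese Spring (CS). The rows were chosen by their levels. After quantile normalization across all 18 samples, the mean log2 intensity over the 6 samples of 3R had to be under 6.3, and the mean had to be 7.5 or more over the 6 samples of 6R and over the 6 samples of CS. A row under 6.3 is called silent here, and a row at 7.5 or more is called expressed. The rule used every sample of every line, so the line differences of these rows are given as a description and carry no test.

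Transcripts of root apices were measured on arrays of 2 colours, Cy3 and Hyper 5, in seedlings aged 5 days. The groups were 3R with 200 µM AlCl3 for 24 h, 3R in control solution, 6R with AlCl3, 6R in control solution, CS with AlCl3 and CS in control solution, with 3 samples each. Every seedling was grown at acid pH without AlCl3 until transfer at an age of 4 days, so the controls were acid-grown too. Each sample held 9 root tips of 1 cm, and the labels call the samples biological replicates. Samples of the same replicate number, with and without Al, shared an array, 9 arrays in all. By the scanner file prefixes, 3R and 6R shared slide 1 with their replicates 1 and 2, those of CS were alone on slide 2, and replicate 3 of each line was on slide 3. For 6R the titles and the scanner file names exchange replicates 1 and 2, and the numbers here are those of the titles. Each addition line is a single stock that carries the wheat genome and a pair of rye chromosomes per the labels. The chromosome make-up of the seedlings was not analysed here.

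Bread wheat is hexaploid. Most of its genes exist as related copies, called homoeologues, on the A, B and D chromosomes of a homoeologous group, and rye chromosome 3R belongs to the same group as the wheat chromosomes 3A, 3B and 3D. A short array probe may detect 1 copy or several. Addition lines are used to ask what a rye chromosome brings to wheat, and rye is known for its tolerance of aluminium, which at low pH stops root growth at the apex.

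In 3R the rows lay near the level of rows that gave no signal in any line, which the limit of 6.3 for both sets largely fixes. Their mean level in 3R ran from 5.89 to 6.2996 with a median of 6.05 log2 units. The 16068 rows silent in all 3 lines had a median of 6.04 in 3R, with 5th and 95th percentiles of 5.94 and 6.17, and 115 of the 146 rows lay between these percentiles. The 146 rows spread a little wider, with 5th and 95th percentiles of 5.92 and 6.22. The name silent thus describes values at the floor, and an intensity there is an upper limit and not a level. In bulk root tips, fewer cells of a type and less RNA per cell cannot be told apart.

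In the other lines the same rows spanned most of the measured range. Their mean levels ran from 7.54 to 12.76 in 6R, with a median of 8.57, and from 7.51 to 13.19 in CS, with a median of 8.63. The difference of 3R from the mean of 6R and CS had a median of -2.57 log2 units, a 5.95-fold difference, and went as far as -6.99, or 127-fold. Because the values of 3R sat at the floor, these folds are lower bounds. The levels of 6R and CS ran together (Pearson's r = 0.964 over the 146 rows, which share the arrays, and 0.975 over all 21087 rows expressed in both).

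**Figure D1:**
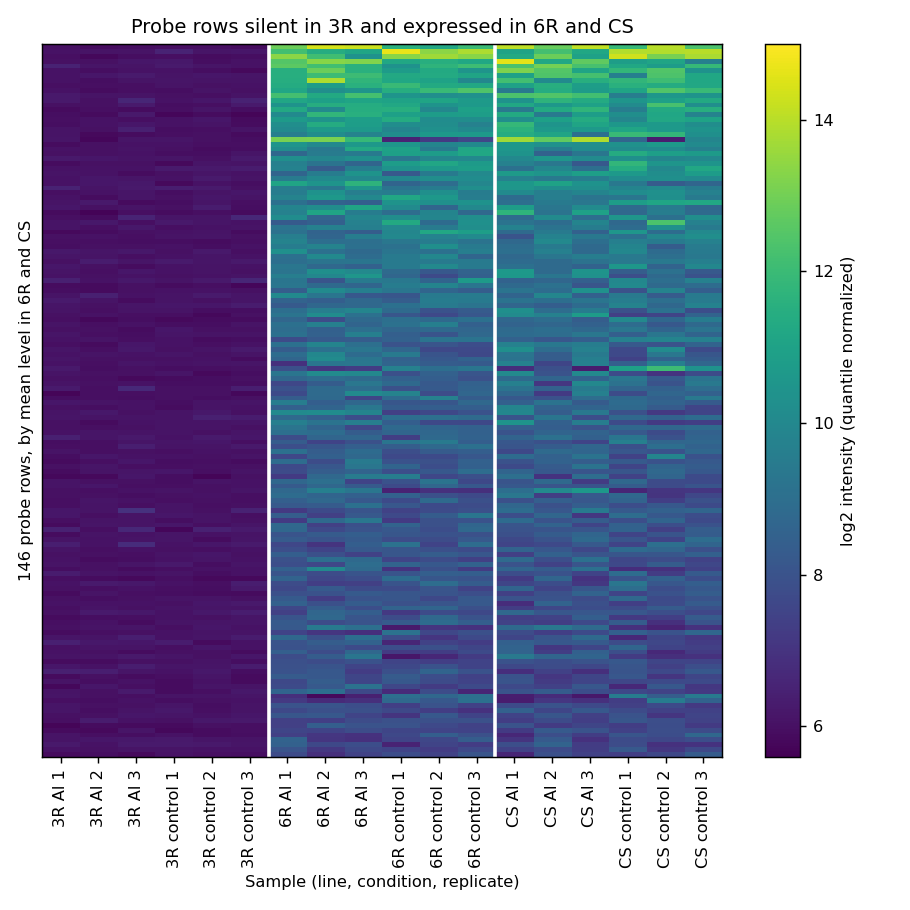
Log2 intensity (colour) of the 146 probe rows, sorted from high to low mean level in 6R and CS, in the 18 samples ordered as 3R, 6R and CS with the Al samples of each line before its controls. The 6 columns of 3R are uniformly dark, with medians of 6.03 to 6.07, while the columns of 6R and CS have medians of 8.48 to 8.87.

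The 3 replicates of 3R gave the same picture in both dyes and on both slides. Over the 146 rows the median was 6.05, 6.03 and 6.05 in the Al samples of 3R and 6.06, 6.06 and 6.07 in its control samples. The medians in 6R were 8.67, 8.72 and 8.87 with Al and 8.60, 8.48 and 8.51 without it, and in CS 8.79, 8.61 and 8.79 with Al and 8.71, 8.55 and 8.60 without it. Between 134 and 143 of the rows were under 6.3 in any single sample of 3R, and none reached 7.5 there. In the single samples of 6R and CS between 122 and 135 rows reached 7.5, and at most 2 were under 6.3.

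The silence was complete at the level of samples for most rows. All 6 samples of 3R were under 6.3 for 119 of the 146, and 27 had a sample at 6.3 or more, the highest of them 6.95. For 144 of the 146 rows the highest sample of 3R lay under the lowest of the other 12 samples. Over all rows this held for 1.08% (490 of 45220). The rule used this contrast, so the count describes the rows and supports nothing further. The gap between the highest sample of 3R and the lowest of the others had a median of 1.42 log2 units and was over 1 for 107 rows. The other lines were less uniform: 78 rows were at 7.5 or more in all 12 samples.

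The same difference was seen on each slide that held 3R. On slide 1 the median of 3R minus 6R was -2.53 over the 146 rows, and all 146 were lower in 3R. On slide 3, which held a replicate of every line, the median was -2.62 for 3R minus 6R and -2.64 for 3R minus CS, and all 146 were lower in 3R than in both. The rule used the samples of both slides, which largely fixes these counts, so they describe the rows and support nothing further.

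The rule was also applied with 1 replicate number of every line left out, and the left-out samples were then looked at. When replicate 3 of every line was left out, the rule chose 151 rows from replicates 1 and 2. In the left-out samples of 3R, on slide 3, 133 of these 151 rows were under 6.3, with a median of 6.06. The left-out samples of 6R and CS had medians of 8.76 and 8.76. The whole rule was met again by 116 of the 151 rows (76.8%), and 151 of 151 were lower in 3R than the mean of 6R and CS by over 1. Among the other 20727 rows expressed in 6R and CS by replicates 1 and 2, the left-out 3R samples were under 6.3 for 11 rows, or 0.0531%. With replicate 1 left out, 115 of 143 chosen rows met the rule again (80.4%), and with replicate 2 left out 114 of 137 (83.2%). The left-out samples shared the normalization and came from the same stocks, and 139 of the 151 rows were among the 146. These values describe how alike the replicates were and are no independent test.

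Neither of the other lines had such a set. With 6R as the silent line the rule found 1 row, and with CS it found 3 rows. Rows just above the limit followed the same order. Among rows expressed in the other lines, 45 had a mean of 6.3 to under 6.6 in 3R, against 2 in 6R and 8 in CS, and 69 had a mean of 6.6 to under 7.0 in 3R, against 6 in 6R and 25 in CS. The share of rows whose highest sample in a line lay under the lowest of the other 12 was 1.08% for 3R, 0.0509% for 6R and 0.102% for CS. Slide 2 held samples of CS alone, so slide and line cannot be told apart there.

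**Figure D2:**
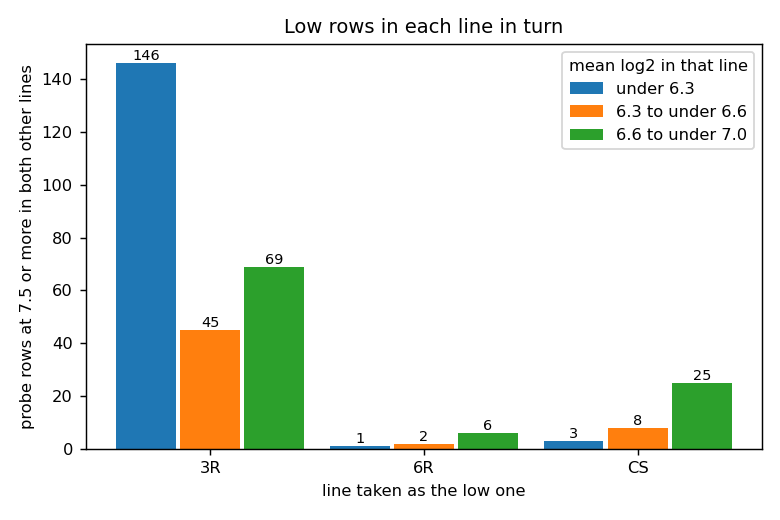
Number of probe rows with a mean of 7.5 or more in both other lines, by their mean log2 intensity in the line named on the x axis (under 6.3, 6.3 to under 6.6, 6.6 to under 7.0). The bar for silent rows stands at 146 for 3R, 1 for 6R and 3 for CS.

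The 146 rows were the bottom of a wider set of rows lower in 3R. Of the 21087 rows expressed in 6R and CS, 662 were lower in 3R than the mean of 6R and CS by over 1 log2 unit, while with 6R or CS as the low line the counts were 60 and 265. A difference of over 2 was found for 213 rows in 3R, against 2 in 6R and 24 in CS. A difference of over 4 was found for 36 rows in 3R and for none in 6R or CS. The 213 consisted of 106 silent rows and 107 others, whose mean in 3R ran from 6.32 to 12.09 with a median of 7.28. Rows higher in 3R by over 1 numbered 348. The median difference over the 21087 rows was 0.02.

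**Figure D3:**
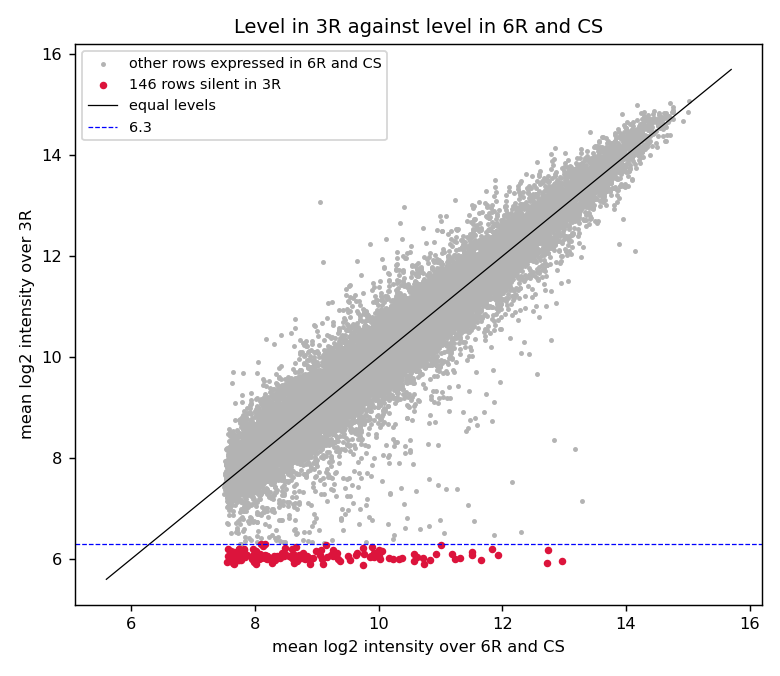
Mean log2 intensity over 3R (y axis) against the mean over 6R and CS (x axis) for the rows expressed in 6R and CS, with the 146 silent rows in red, the other rows in grey, equal levels as a line and 6.3 as a dashed line. The red points form a flat band between 5.89 and 6.2996 below the cloud, at x values up to about 13.

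Silent rows were more frequent among dim rows than among bright ones. They made up 1.91% of the rows with a mean over 6R and CS of 7.5 to under 8 (34 of 1778), 1.26% from 8 to under 9 (59 of 4678), 0.614% from 9 to under 10 (26 of 4232), 0.373% from 10 to under 11 (15 of 4023) and 0.188% at 11 or more (12 of 6376). Part of this order is built into the rule, since a bright row has to drop further to reach 6.3.

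The brightest rows show how complete the difference was. Probe row 35044 had 6.01, 5.93 and 5.96 in 3R with Al and 5.99, 6.00 and 5.93 in 3R controls. It had 12.90, 14.39 and 14.23 in 6R with Al and 11.58, 11.23 and 12.01 in 6R controls. In CS it had 14.05, 12.81 and 14.09 with Al and 11.88, 13.99 and 12.33 without it. Every sample of 3R was at the floor and the lowest other sample stood over 5 log2 units above it, the widest gap of the set (5.22). Probe row 11996 averaged 5.93 ± 0.07 in 3R, 12.70 ± 1.25 in 6R and 12.73 ± 1.34 in CS (SD, n = 6 samples per line, Al and control together), and probe row 21650 averaged 6.18 ± 0.17 in 3R, 12.76 ± 1.42 in 6R and 12.72 ± 1.40 in CS. None of these 3 rows has a gene name in the annotation.

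At the edges of the rule the rows on either side lay close together. Probe row 44618, the member nearest to the limit in 3R, averaged 6.2996 there, and probe row 24197, just outside, averaged 6.301. In 6R the lowest member was probe row 32816 at 7.54, and probe row 23655 stood just outside at 7.49. In CS these were probe row 26353 at 7.51 and probe row 26532 at 7.49. In 2 members, probe rows 17679 and 24248, the samples of 3R overlapped those of the other lines, and they are named because of that count. In probe row 24248 an Al sample of 6R had 5.85, below the 3R values of 6.00 to 6.15.

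Of the 146 rows, 145 have no gene name in the platform annotation, which names 996 of the 45220 rows. The named one is probe row 39540 of LOC543362, a gene for which the annotation gives a number and no function. It had 6.16, 5.97 and 6.09 in 3R with Al and 6.16, 6.09 and 5.98 in 3R controls. In 6R it had 8.38, 7.36 and 8.23 with Al and 7.69, 8.33 and 9.26 without it, and in CS 7.85, 8.69 and 7.13 with Al and 8.94, 8.19 and 7.82 without it. The highest sample of 3R, at 6.16, lay under the lowest sample of the other lines, at 7.13. Its change with Al did not pass in limma in 6R (log2 -0.27 ± 0.26, SE from the spread pooled over all 9 arrays, adjusted p = 0.57) or in CS (-0.27 ± 0.26, adjusted p = 0.60).

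A second probe row of LOC543362, row 40435, was not silent. It averaged 10.07 ± 0.70 in 3R, 11.02 ± 0.73 in 6R and 11.62 ± 0.58 in CS (SD, n = 6). Its samples overlapped between 3R (9.23 to 10.97) and 6R (10.01 to 12.00), and the lower level of 3R did not pass in limma against CS (adjusted p = 0.084) or against 6R (adjusted p = 0.44). The 2 rows of this gene therefore disagreed on silence.

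The gene table of the wheat assembly IWGSC CS RefSeq v2.1 places LOC543362 on chromosome 3D, of the homoeologous group of rye 3R. Named rows were therefore grouped by the chromosome of their gene, a step chosen after the values were seen. Of the 553 gene symbols on the array, 547 belong to 1 gene of that table. Named rows expressed in 6R and CS numbered 581, from 319 genes. Over all of them the median of 3R minus the mean of 6R and CS was 0.11 log2 units, and 6 were lower in 3R by over 1. Chromosome 3D had 21 of these rows, from 12 genes, with a median of -0.28, the lowest of the 21 chromosomes, and it held 3 of the 6 rows lower by over 1. The silent row of LOC543362 is among the 3, was chosen as low in 3R and led to this grouping. Without it the remaining 20 rows of 3D had a median of -0.27, and 2 were lower by over 1. These were row 40435, of LOC543362 again, and row 32896 of LOC542898. The rows of 3A and 3B, 45 in all, had a median of 0.02, and 1 of them was lower by over 1. The annotation does not tell homoeologous copies apart, and rows of 1 gene are not independent.

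Within 3D the rows differed. Beside the 2 rows of LOC543362, row 32896 of LOC542898 averaged 11.31 ± 1.14 in 3R, 12.54 ± 0.82 in 6R and 13.03 ± 0.65 in CS (SD, n = 6), and it passed in limma against 6R (adjusted p = 0.013) and against CS (adjusted p = 0.00093). Over all rows 1.15% were lower in 3R than in both other lines by this test. The row of eIF4E, a cap-binding translation initiation factor, stood at -0.81 and did not pass (adjusted p = 0.47 against 6R and 0.70 against CS in limma). The 4 rows of the beta-tubulin gene tubb2 lay between -0.05 and 0.25, and LOC100146098 had rows from -0.26 to 0.88. The lower median of 3D thus came from some of its genes and not from each of them.

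**Figure D4:**
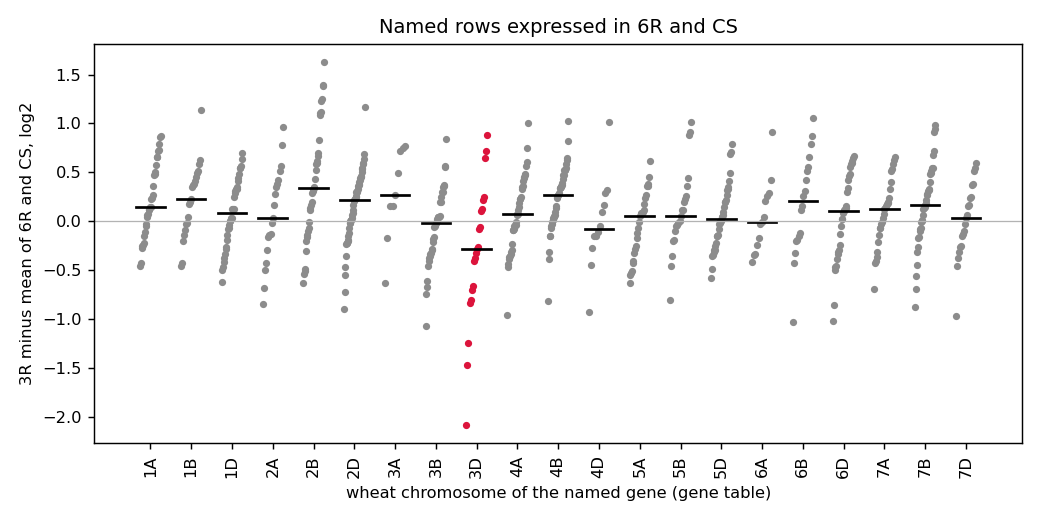
Level of 3R minus the mean of 6R and CS (log2, y axis) for named probe rows expressed in 6R and CS, by wheat chromosome of the gene, with 1 point per row and the median as a bar. Chromosome 3D (red, 21 rows) has the lowest median, -0.28, and the lowest point, -2.08, which is the silent row of LOC543362.

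Whether these transcripts take part in the response to aluminium was asked in 6R and CS, where the rule averaged over Al and control samples. The rule still enters these tests, since the spread of each row was pooled over the arrays of all lines. It holds 3R at the floor, where the median SD within a group was 0.078 with Al and 0.082 without it. In the groups of 6R and CS this median was 0.36 to 0.484. The SE and adjusted p of the silent rows in 6R and CS may thus be too small, and by how much was not tested. The response is the log2 ratio of Al over control within an array, with the dye effect removed, averaged over the 3 arrays of a line. In 6R, 38 of the 146 rows rose with Al and 24 fell, 62 in all or 42.5%, in limma at an adjusted p under 0.05 over all rows. Over all rows 27.0% passed in 6R, and 48.5% of the rows expressed in 6R and CS. In CS, 33 rose and 24 fell, 57 in all or 39.0%, against 22.7% of all rows and 40.6% of the expressed ones. In the main fit the share of silent rows that were called was thus close to that of other expressed rows. The pooled spread may raise the share of the silent rows, so this comparison is a description. Other fits moved this comparison. Without the dye term 35 rows passed in 6R and 34 in CS, beside 17.5% and 15% of the expressed rows. Without the array pairing 27 and 28 passed, beside 10.4% and 8.92%. Both fits thus called a larger share of the silent rows. With slide as a further block 30 and 35 passed, a smaller share than the 25.4% and 27.1% of the expressed rows. The counts depended on single arrays. Without replicate 1 of 6R 36 rows were called in 6R, and without replicate 3 of CS 36 in CS. Over all rows 14.1% and 14.8% passed in these fits.

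The responses of 6R and CS ran together over these rows. In both lines 27 rows rose and 20 fell, none was called in opposite directions, 25 passed in 1 line and 74 in neither. The rows that rose in both made up 18.5% of the 146, against 17.0% of the expressed rows, and those that fell in both 13.7%, against 16.9%. The median response was 0.11 in 6R and 0.00 in CS, and over the expressed rows it was -0.02 and -0.03. Pearson's r between the responses of 6R and CS was 0.927 over the 146 rows and 0.909 over the expressed rows, where the lines share no sample but share the dye term.

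Probe row 1634 showed the largest rise in both lines. In 6R it had 13.06, 13.11 and 11.90 with Al, against 6.54, 7.19 and 7.61 without it, and in CS 13.65, 12.72 and 13.86 with Al, against 8.68, 6.34 and 9.89 without it. The Al samples stood above every control sample in both lines, and the controls reached down almost to the floor. The log2 change was 5.74 ± 0.42 in 6R (SE from the spread pooled over all 9 arrays, 53.4-fold, adjusted p = 7.2e-05 in limma) and 5.27 ± 0.42 in CS (38.6-fold, adjusted p = 0.00011). In 3R the same row had 6.14, 5.75 and 6.14 with Al, against 6.12, 6.02 and 5.94 in controls, so that no rise out of the floor was seen there. The rule fixes this, since a rise of such size in 3R would have kept the row out of the set.

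Probe row 35222 rose as well, with 8.77, 9.66 and 9.28 in 6R with Al, against 6.49, 6.92 and 6.85 in controls, a log2 change of 2.47 ± 0.18 (adjusted p = 7.9e-05 in limma). In CS it had 9.00, 10.04 and 10.60 with Al, against 6.57, 7.05 and 7.09 in controls, a change of 2.97 ± 0.18 (adjusted p = 3.6e-05). Its 6 samples of 3R lay between 5.99 and 6.15.

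Among the rows that fell, probe row 24248 had 6.88, 5.85 and 6.41 in 6R with Al, against 9.00, 8.75 and 9.04 in controls, and 6.35, 6.74 and 6.22 in CS with Al, against 9.56, 8.36 and 9.47 in controls. Al took this row close to the floor in both lines, so its log2 changes of -2.43 ± 0.22 in 6R (adjusted p = 0.0002 in limma) and -2.57 ± 0.22 in CS (adjusted p = 0.00016) may be too small. The bright probe row 21650 had 12.17, 11.43 and 11.12 in 6R with Al, against 14.69, 13.35 and 13.83 in controls. Its change was -2.32 ± 0.22 in 6R (adjusted p = 0.00025) and -2.39 ± 0.22 in CS (adjusted p = 0.00023).

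Probe row 10385 fell most in CS, with 6.83, 7.91 and 6.31 with Al, against 10.93, 12.05 and 10.40 in controls, a log2 change of -4.12 ± 0.08 (17.4-fold, adjusted p = 1.2e-06 in limma). In 6R it had 7.88, 7.05 and 7.25 with Al, against 9.73, 9.00 and 9.24 in controls, a change of -1.94 ± 0.08 (3.83-fold, adjusted p = 6.7e-06). It was the 1 row of the 146 whose responses differed between these lines, by 2.18 ± 0.11 for 6R minus CS (adjusted p = 0.00078), and it is named because that count is 1. Over all rows 0.299% passed for this difference, and over the expressed rows 0.365%. The call was lost with slide as a further block (2.11, adjusted p = 0.18) and with no replicate block (2.18, adjusted p = 0.99), and replicates 1 and 2 of CS were alone on slide 2. For the other 145 rows the difference did not pass.

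In 3R no change with Al passed. The fitted log2 change with Al ran from -0.40 to 0.33 with a median of -0.02. The dye term shared with 6R and CS enters these values, so they are not plain changes of the 3R samples. Probe row 35044 was fitted at -0.264, while its 3R samples lay between 5.93 and 6.01. None of the 146 passed in limma, nor did any have an unadjusted p under 0.05, while 14.8% of all rows passed in 3R. The rule keeps these rows near the floor in 3R, which leaves little room for a change, so the count is a description. Without replicate 2 of 3R, 12 of the 146 passed, 5 up and 7 down, and 58 had an unadjusted p under 0.05. In that fit 4.16% of all rows passed in 3R, and 7.89% of the rows expressed in 6R and CS. That replicate is the only 3R array with Al in Hyper 5, so the fit without it takes the dye term from 6R and CS. With all arrays and no dye term 0 passed. No response of 3R to Al is read from the 12.

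**Figure D5:**
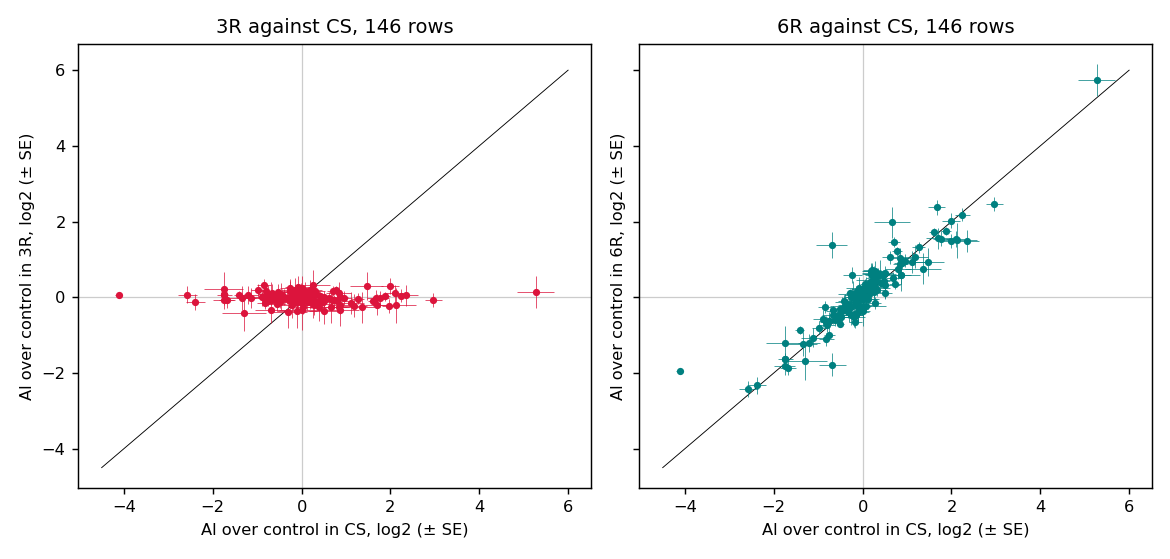
Log2 change with Al in 3R (left) and in 6R (right) against the change in CS for the 146 probe rows, with standard errors, and equal changes as a line. In 3R the fitted changes, which carry the dye term shared by all lines, lie between -0.40 and 0.33. In 6R the points follow the line, with the highest at 5.74 and the lowest at -2.43.

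Between 6R and CS the levels of the rows were close. The difference of 6R minus CS ran from -1.24 to 0.84, and it was under 0.5 in size for 130 of the 146 rows. The median difference was 0.02, and within slide 3 it was 0.06. The rule asked for a mean of 7.5 or more in both lines, so these values describe the rows. In limma on single channels 0 of the 146 were called and 11 had an unadjusted p under 0.05, beside 0.232% of all rows called, and nothing is read from this count.

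The rows were spread over the row numbers of the array list, and their positions on the slide were not examined. Cut by row number into 10 equal stretches, each stretch of the array list held between 9 and 23 of the 146, and 1 pair had neighbouring numbers. Markers of root, of dividing cells, of leaf photosynthesis and of seed were looked up as a check of the tissue, and none of their rows was a member. All 12 rows of the root list (TaGlu1a, Taglu1b and others) and all 13 rows of histone and tubulin genes were expressed in each line. In the photosynthesis list 19 of 23 rows were expressed in each line, and in the seed list 1 of 4 in 3R, 0 in 6R and 1 in CS. The log2 of the summed intensity was 16.36 in 3R, 15.87 in 6R and 15.59 in CS for the root list. For photosynthesis it was 15.31 in 3R, 15.04 in 6R and 14.30 in CS. For dividing cells it was 17.05 in 3R, 16.89 in 6R and 17.01 in CS, and for seed 9.20 in 3R, 8.53 in 6R and 9.15 in CS. The part of these lists in the silence of the 146 rows was not tested.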

How the data were processed

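The 18 samples are the channels of 9 arrays of 2 colours, with the Al and control sample of a replicate together. The authors deposited log2 intensities for 45220 probe rows. The submitters' processing notes name limma, and how background was corrected or values were normalized is not given in the sources used here. Sorted values are nearly equal within a line and differ between lines. The values were therefore quantile normalized again across the 18 samples (limma 3.58.1, R 4.3.3), and members were chosen with Python 3.11.15. Detection calls and marks of control spots are missing from the table used, and every row entered the fits.

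Al responses were fitted with limma on within-array log2 ratios, with line means and a dye term (5 residual degrees of freedom, 2.61 from the prior). The spread of a row was pooled over all lines, 3R included. The samples of an array are paired by the labels, and their residuals correlated at 0.722 to 0.85. For levels, each channel entered on its own, with a mean per group, the dye as a covariate and arrays as random blocks (consensus correlation 0.625). Alternative fits estimated that correlation on each 10th row. Benjamini-Hochberg adjustment ran over all rows, with calls at an adjusted p under 0.05, and these tools gave every adjusted p in the text.

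The fits were tested on simulated data with known changes. The number of arrays limits the precision. Named rows are every member with a symbol, the 3 of highest level, the 2 largest rises and falls with Al in CS and in 6R with the same sign in 3 of 3 arrays, and the rows nearest each limit. A like choice for the level of 6R minus CS gave no row. Of 553 symbols, 547 matched 1 gene of the table of assembly IWGSC CS RefSeq v2.1. The members, lists and tests were chosen with earlier results of these data known. Alternatives changed the values, limits, dim rows, dye term, array block, variance prior, slide and replicates.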

Additional observations from a re-analysis of the deposited data

Results flagged for a closer look

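The response to Al of probe row 10385 differed between 6R and CS by 2.18 log2 units in the test of the difference itself, because the row fell less in 6R (-1.94) than in CS (-4.12). In 3R the row was at the floor, at 5.95 to 6.23. These values enter the pooled spread of the test, so its adjusted p may be too small. The difference kept its direction in each alternative and did not pass with slide as a further block (2.11, adjusted p = 0.18) or with no replicate block (2.18, adjusted p = 0.99).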

How the results depend on the processing

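The number of silent rows was 146 in the main setting and 161 on the values as deposited, which held all 146. It was 31 with a limit of 6.0 in 3R, 191 with 6.6, 203 with a mean of 7.0 or more in 6R and CS, and 103 with 8.0. Control samples alone gave 141 rows, Al samples alone 153, medians 151 and slide 3 alone 141, of which 126, 130, 142 and 121 were among the 146. Ranking ties in row order, an alternative chosen after seeing the data, gave 145. Leaving out replicates gave 137 to 155. With CS as the silent line there were 3 rows and with 6R there was 1.

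The main setting called 62 of the 146 rows for Al in 6R and 57 in CS, beside 27.0% and 22.7% of all rows. The totals were 35 and 34 without the dye term, beside 9.83% and 8.54% of all rows. With slide as a further block they were 30 and 35, beside 13.7% and 14.7%. Which rows these totals share with the main calls was not counted. Without the array pairing (no replicate block) the totals were 27 and 28, beside 6.04% and 5.25% of all rows. Leaving out single arrays gave 36 to 75 in 6R and 36 to 65 in CS, and 0 to 12 in 3R against 0. Over all rows the share then ran from 14.1% to 29% in 6R and from 14.8% to 24.5% in CS. The 12 came without replicate 2 of 3R, the only 3R array with Al in Hyper 5, where the dye term comes from 6R and CS. In that fit 4.16% of all rows passed in 3R. The difference of 6R minus CS, called for 1 row, was called for 0 with no replicate block and 0 with the slide block, and for 1 without any single array. For the level of 6R minus CS, which the rule bounds from below in both lines, a fit called 0 rows (11 at an unadjusted p under 0.05), and 1 row passed on the deposited values, 0 to 1 with arrays left out, and 0 with a replicate block, where numbers pair no samples between lines. The causes were not tested. Values at the floor limit what can be read in 3R. They also enter the pooled spread of the Al tests in 6R and CS, which may raise the totals of the silent rows there.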

Other observations

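The opposite pattern was rare in 3R. Rows expressed in 3R and silent in 6R and CS numbered 3, while 1 row was expressed in 6R alone and 11 in CS alone by the same limits. A further 409 rows expressed in 6R and CS were lower in 3R by 1 to 2 log2 units without being silent.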
